A study of Homo sapiens with 72 samples.

Results

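The genes described are 10 immediate early regulators measured in IMR-90 cells, normal human lung fibroblasts used at early passage. The genes are the zinc finger factors EGR1, EGR2 and EGR3 and the orphan nuclear receptors NR4A1, NR4A2 and NR4A3. The others are the growth regulator MYC, the transcription factor SRF, and the early response genes IER2 and IER3. Every probe that the array annotation gives one of these names was taken, which gave 17 of the 41000 probes on the array. Of these, 15 (of 25236 probes in all) passed the filter on dim spots and still covered the 10 genes. Cells grew as 1 contiguous layer over 2 nested dishes, an outer one with a thin Mylar base and an inner one with a base thick enough to stop the beam, and were exposed to 50 cGy of 4He ions that stand in for alpha particles. Cells of the outer dish were hit (irradiated), cells of the inner dish were not (bystander), and control dishes received a sham exposure of 0 cGy. RNA was taken at 6 times (0.5 hours, then 1, 2 and 4 hours, then 6 and 24 hours) in 4 experiments, which gave 18 groups of 4 arrays and 72 arrays in all. The 3 samples of an experiment came from 1 pool of cells grown from a single vial, so p-values measure the spread between experiments and not between sources of cells.

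All 10 fibroblast markers looked at (collagens, vimentin, decorin and others) were well above background on every array, with COL1A2 the brightest, and their summed level stayed between 8.68 and 10.19 (log2). At 0.5 hours THY1 fell by 1.07 in irradiated and by 1.10 in bystander cells and PDGFRB fell by 0.75 in bystander cells, and no other of the 10 was called at that time. In irradiated cells PDGFRB was at -0.61 and FAP at 0.43 at 2 hours, and at -0.94 and 0.81 at 6 hours, the only calls among the 10 after 0.5 hours. Of all probes 9.88% were called in irradiated and 6.95% in bystander cells at 0.5 hours, and 5.79% and 10.5% in irradiated cells at 2 and 6 hours, and nothing is read from so few marker calls. The median log2 ratio of the 10 from 0.5 to 24 hours was -0.36, -0.33, -0.19, -0.41, -0.39 and -0.56 in irradiated and -0.40, -0.38, -0.23, -0.39, -0.29 and -0.54 in bystander cells. The part of these markers in the results was not tested. Among markers of other cell types, CDH1 (epithelial) was well above background on 0 arrays, KRT5 (epithelial) and PTPRC (leukocyte) on 1 each and PECAM1 (endothelial) on 2, whereas TEK, KDR and VWF (endothelial), KRT14 and SFTPC (epithelial) and CD14, CD3E and ITGAM (leukocyte) were above it on all 72. RNA was measured in bulk, so a larger share of responding cells and more RNA in each cell cannot be told apart.

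Immediate early genes are switched on within minutes of a growth factor or a stress by factors that are already present in the cell, without new protein being made. SRF bound to CArG boxes together with ETS cofactors, and CREB bound to cyclic AMP response elements (CRE), are the textbook routes that carry MAP kinase and calcium or cyclic AMP signals to these promoters. EGR and NR4A proteins are themselves transcription factors that pass the signal on to later genes, MYC drives growth and ribosome production, and IER3 acts on survival and NF-kB signalling.

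The promoters are shown because several members moved together and these windows can hold the sites of both routes. From the RefSeq table of promoters (GRCh38.p14) 10 windows of 6 of the genes were searched (EGR1, EGR2, NR4A1, NR4A3, SRF and IER2). Each window had 250 bases before and 50 bases after a start. MYC and EGR3 were left out of the search, and the table had no window for IER3 and NR4A2. The 160 bases before the start are printed 5′ to 3′ for 1 window of each of 5 genes, with CArG boxes and the core of the CRE (TGACG on either strand, so also CGTCA) in capitals.
EGR1, plus strand, chr5:138465319-138465478: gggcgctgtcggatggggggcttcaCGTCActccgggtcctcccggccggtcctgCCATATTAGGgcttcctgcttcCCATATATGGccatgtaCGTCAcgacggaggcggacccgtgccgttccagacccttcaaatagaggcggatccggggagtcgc
EGR2, minus strand, chr10:62816367-62816526: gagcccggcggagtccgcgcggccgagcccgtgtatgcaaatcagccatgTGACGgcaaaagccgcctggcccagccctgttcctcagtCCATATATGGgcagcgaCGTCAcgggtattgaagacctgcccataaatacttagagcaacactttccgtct
NR4A3, plus strand, chr9:99821725-99821884: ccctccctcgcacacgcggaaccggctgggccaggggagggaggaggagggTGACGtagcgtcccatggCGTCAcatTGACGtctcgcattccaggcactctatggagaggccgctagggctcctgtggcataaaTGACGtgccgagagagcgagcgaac
IER2, plus strand, chr19:13150251-13150410: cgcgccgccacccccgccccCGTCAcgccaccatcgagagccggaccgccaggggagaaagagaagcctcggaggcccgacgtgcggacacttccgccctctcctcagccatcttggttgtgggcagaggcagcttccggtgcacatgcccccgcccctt
SRF, plus strand, chr6:43171109-43171268: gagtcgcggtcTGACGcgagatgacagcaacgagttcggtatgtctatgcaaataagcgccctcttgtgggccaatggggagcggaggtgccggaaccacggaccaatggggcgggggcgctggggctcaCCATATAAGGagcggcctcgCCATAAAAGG

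EGR1 had CArG boxes starting 105 and 83 bases before the start and CRE cores at 135 and 66. In the EGR2 window shown, 1 CArG box lay at 71 between CRE cores at 110 and 54, and the other 2 EGR2 windows had neither. SRF had CArG boxes at 30 and 10 bases before its own start and a CRE core at 149. NR4A3 had no CArG box and CRE cores at 109, 91, 83 and 25, and IER2 had 1 core at 140. The NR4A1 windows held neither motif. Of all 35116 windows in the table, 1.29% held a CArG box and 24.6% a CRE core. An EGR site (GCGGGGGCG, either strand, in 5.07% of all windows) was found among the 10 windows only in that of SRF shown here, 49 bases before the start, where it overlaps a GC box (GGGCGG, either strand, in 45.0% of all windows). The NBRE that NR4A receptors bind (AAAGGTCA, either strand, in 1.22% of all windows) was in none of the 10. These are matches of letters and say nothing of binding.

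Levels are log2 signal relative to the 75th percentile of the same array, so that 0 is that percentile and 1 unit is a doubling. Ratios to control are differences of these levels within an experiment, and a probe was called when limma's moderated test with experiment as a block gave an adjusted p below 0.10 over all probes tested. At 0.5 hours 9 of the 15 probes were called in irradiated cells and 8 in bystander cells, all of them higher. Among all probes 9.88% were called in irradiated cells (5.79% higher) and 6.95% in bystander cells (4.2% higher). The probes called stood for 8 of the 10 genes in irradiated cells (all but MYC and SRF) and for 7 in bystander cells, where EGR1 was not called. Their log2 ratios ran from 0.49 to 1.37 in irradiated cells, or 1.41-fold to 2.59-fold, and from 0.60 to 1.26 in bystander cells. The median log2 ratio over the 15 probes was 0.69 and 0.60, against -0.03 and 0.00 over all probes. Both comparisons use the same 4 control arrays.

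**Figure D1:**
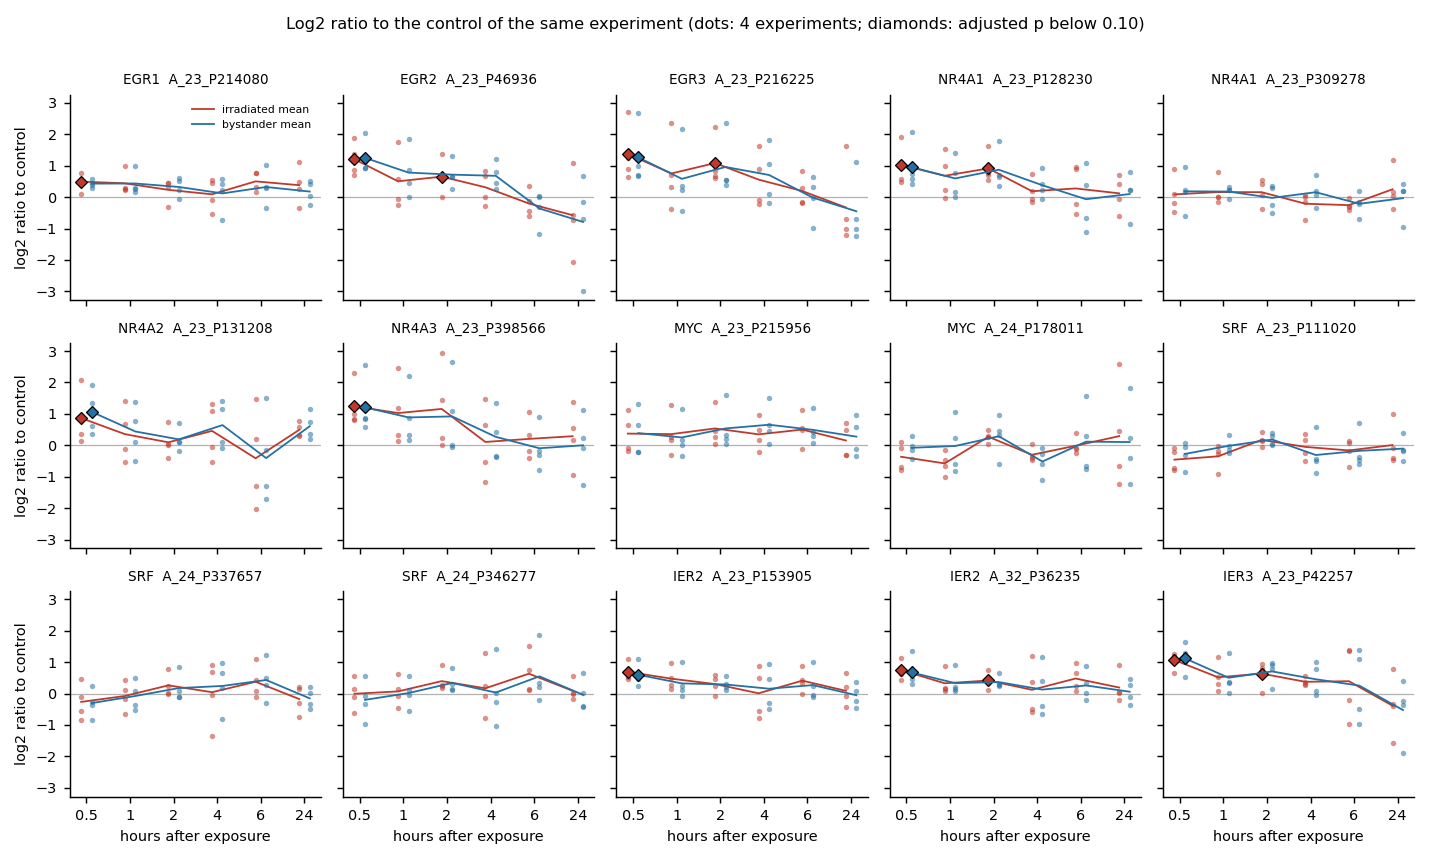
Log2 ratio to the control of the same experiment (vertical axis) against hours after exposure (horizontal axis, not to scale) for the 15 probes that passed the filter. Dots are the 4 experiments, lines the means in irradiated (red) and bystander (blue) cells, and diamonds mark an adjusted p below 0.10. Called ratios are found at 0.5 hours in both conditions and at 2 hours in irradiated cells, and none is found for MYC or SRF.

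The counts at 0.5 hours depended on each experiment and on the pairing: without experiment 2 none of the 15 probes was called in either condition (and 0 of all probes), without experiment 1, 3 or 4 the counts were 3, 7 and 1 in irradiated and 0, 6 and 2 in bystander cells, and without experiment as a block they were 0 and 0. Of all probes 496, 1441 and 350 were called in irradiated and 3, 1156 and 632 in bystander cells without experiment 1, 3 or 4. With arrays left unscaled 1 probe was called in each condition and with slide as a fixed block 2, although the log2 ratio of each called probe stayed above 0 under all 14 alternatives. In irradiated and bystander cells 213 and 251 of all probes were called unscaled, and 312 and 149 with slide as a fixed block. Without experiment as a block these numbers were 14 and 20.

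The EGR family binds GC-rich sites, and EGR1 is the member best known from serum and radiation responses. EGR1 levels in experiments 1 to 4 at 0.5 hours were 4.36, 4.41, 4.39 and 3.88 in control cells, 4.95, 4.51, 5.16 and 4.39 in irradiated cells and 4.76, 4.71, 4.97 and 4.31 in bystander cells. Each exposed array was above its own control, but the groups overlapped, with experiment 4 the lowest in all 3. The log2 ratio was 0.49 ± 0.28 (SD, n = 4, limma adjusted p 0.0705) in irradiated cells and 0.43 ± 0.12 (SD, n = 4, limma adjusted p 0.107) in bystander cells, where it missed the threshold. EGR2, a close relative known from nerve and immune cells, was called in both conditions. Its levels were -0.41, -0.26, 0.43 and 0.51 in control cells, 0.28, 0.59, 2.32 and 1.89 in irradiated cells and 0.50, 0.87, 2.47 and 1.43 in bystander cells, and experiments 3 and 4 were the high ones in each group. EGR2 rose by 1.20 ± 0.55 (SD, n = 4, limma adjusted p 0.0296) in irradiated and by 1.25 ± 0.54 (SD, n = 4, limma adjusted p 0.0227) in bystander cells. EGR3, which EGR1 and NFAT factors are known to switch on in other cells, was read by a dimmer probe that was well above background on 71 of 72 arrays. EGR3 levels were -1.71, -1.77, -0.62 and -2.26 in control cells, -1.08, -0.88, 2.10 and -1.02 in irradiated cells and -1.05, -1.05, 2.06 and -1.27 in bystander cells, and experiment 3 stood apart in both exposed groups while the other exposed arrays overlapped the controls. EGR3 rose by 1.37 ± 0.93 (SD, n = 4, limma adjusted p 0.0473) in irradiated and by 1.26 ± 0.96 (SD, n = 4, limma adjusted p 0.0631) in bystander cells.

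NR4A receptors need no ligand, and their activity is set largely by how much of them is made. NR4A1 was read by the probe A_23_P128230, with levels at 0.5 hours of 5.05, 5.02, 4.47 and 3.96 in control cells, 5.53, 5.60, 6.39 and 5.08 in irradiated cells and 5.46, 5.59, 6.56 and 4.71 in bystander cells. All 4 irradiated arrays lay above all 4 control arrays, and the bystander array of experiment 4 fell within the control range. NR4A1 rose by 1.02 ± 0.66 (SD, n = 4, limma adjusted p 0.0582) in irradiated and by 0.95 ± 0.77 (SD, n = 4, limma adjusted p 0.0756) in bystander cells. A second NR4A1 probe, A_23_P309278, carried that name in the annotation of 60 arrays but only a transcript identifier in that of the 12 arrays at 0.5 hours. It was dim, with a median level of -3.89, and its log2 ratios of 0.09 (irradiated) and 0.18 (bystander) did not pass the test, so the NR4A1 probes disagree. NR4A2, known from dopamine neurons and inflammation, had levels of 1.79, 1.83, 0.33 and 1.93 in control cells, 2.15, 1.97, 2.40 and 2.82 in irradiated cells and 2.40, 2.21, 2.26 and 3.28 in bystander cells. Both exposed groups lay wholly above the controls, among which experiment 3 was low. NR4A2 rose by 0.87 ± 0.86 (SD, n = 4, limma adjusted p 0.0941) in irradiated and by 1.07 ± 0.71 (SD, n = 4, limma adjusted p 0.0665) in bystander cells. NR4A3 levels by A_23_P398566 were 0.71, 0.83, 0.34 and -0.36 in control cells, 1.51, 1.68, 2.65 and 0.65 in irradiated cells and 1.55, 1.69, 2.90 and 0.21 in bystander cells, and the exposed arrays of experiment 3 were the highest and those of experiment 4 the lowest. NR4A3 rose by 1.24 ± 0.72 (SD, n = 4, limma adjusted p 0.0461) in irradiated and by 1.21 ± 0.91 (SD, n = 4, limma adjusted p 0.0539) in bystander cells. The other NR4A3 probe, A_23_P306867, was well above background on 10 of 72 arrays (2 control, 5 irradiated and 3 bystander), 6 of them at 0.5 hours, and was not tested.

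IER3, an early gene that protects cells from death signals, had levels at 0.5 hours of 4.31, 3.90, 4.62 and 4.93 in control cells, 5.51, 5.17, 5.77 and 5.57 in irradiated cells and 5.61, 5.54, 5.61 and 5.47 in bystander cells. The exposed arrays all lay above the controls, and the 4 bystander arrays (SD 0.07) were closer to each other than the controls (SD 0.44). IER3 rose by 1.06 ± 0.29 (SD, n = 4, limma adjusted p 0.025) in irradiated and by 1.12 ± 0.47 (SD, n = 4, limma adjusted p 0.0206) in bystander cells. Of the 14 alternatives IER3 was still called in 12 (irradiated) and 11 (bystander), while EGR1 in irradiated cells was still called in 2. IER2, a small nuclear protein, was read by A_32_P36235 with levels of 5.86, 5.91, 5.97 and 5.57 in control cells, 6.30, 6.54, 7.10 and 6.36 in irradiated cells and 6.15, 6.49, 7.32 and 6.02 in bystander cells, and both exposed groups lay above the controls. By this probe IER2 rose by 0.75 ± 0.29 (SD, n = 4, limma adjusted p 0.0568) in irradiated and by 0.67 ± 0.47 (SD, n = 4, limma adjusted p 0.0801) in bystander cells. The other IER2 probe, A_23_P153905, rose by 0.69 and 0.60.

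**Figure D2:**
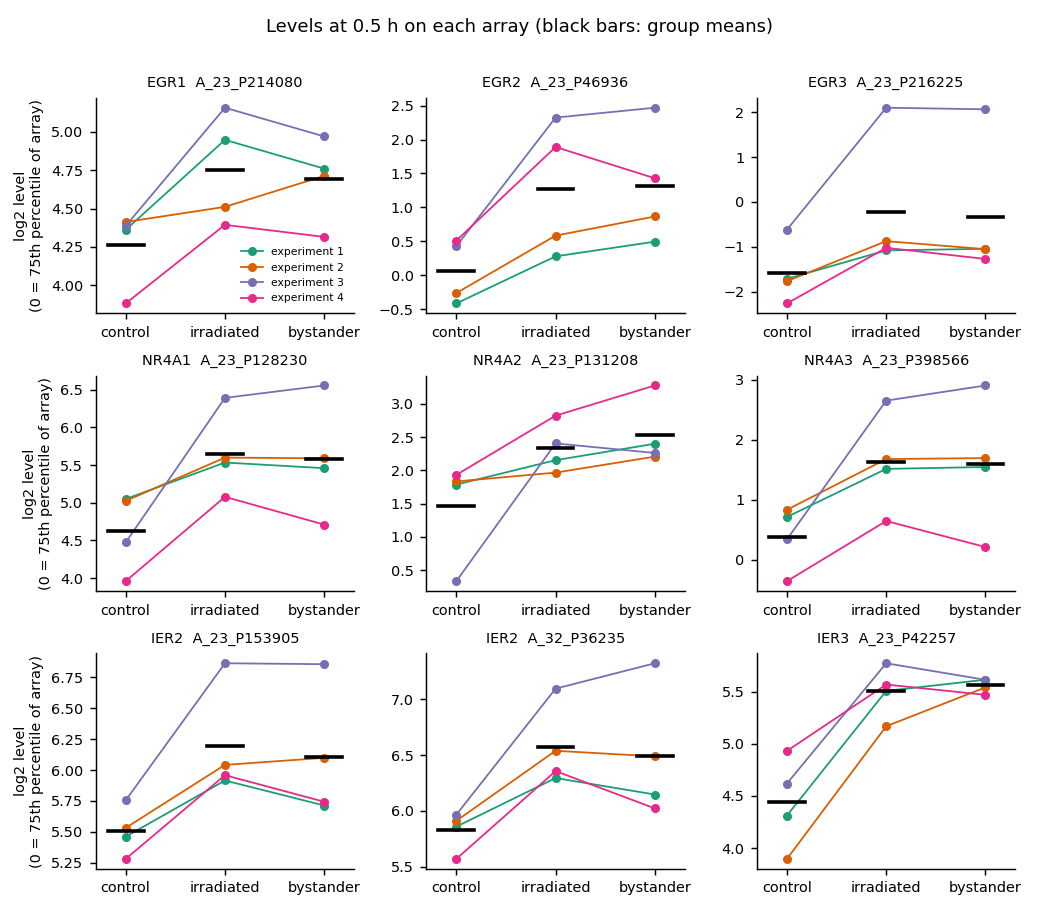
Log2 level relative to the 75th percentile of the array (vertical axis, own scale in each panel) in control, irradiated and bystander cells at 0.5 hours for the 9 probes called. Each line joins the 3 arrays of 1 experiment and black bars are group means. Exposed arrays lie above the control of their own experiment in each panel, and the rise of experiment 3 is the largest except for IER3.

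Experiment 3 had the highest ratio for 8 of the 9 probes called in irradiated cells and for 7 of the 8 in bystander cells at 0.5 hours. Its control array had the lowest 75th percentile of the 12 arrays of that time (log2 9.60) and the lowest share of spots well above background (65.7%), and the part of this in the ratios was not tested beyond leaving the experiment out. In the authors' table of values the arrays numbered 3 and 4 at 0.5 hours are exchanged in all 3 groups, so which of these numbers belongs to the experiment is in doubt, while the pairing within it is the same either way. Each slide held 4 arrays of mixed groups, and within each of the 3 slides of that time the irradiated arrays were on average higher than the control arrays for all 9 called probes and the bystander arrays for all 8, a direction that the choice of called probes largely fixes. In irradiated cells at 2 hours this was so for 4 of the 5 called probes, and IER3 was at -0.07 on the second slide of that time.

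No probe of MYC or SRF was called at 0.5 hours. By limma 10 of the 15 member probes had an unadjusted p below 0.05 in irradiated and 9 in bystander cells at that time, as had 6632 and 5662 of all probes, and the one in irradiated cells that was not called was SRF probe A_23_P111020, which was lower than control (limma adjusted p 0.172). MYC was read by A_23_P215956, which is spotted 10 times on the array, and its levels were 1.96, 2.06, 1.34 and 1.05 in control cells, 1.78, 1.97, 2.46 and 1.70 in irradiated cells and 1.75, 1.86, 2.64 and 1.72 in bystander cells. Exposed arrays were slightly below control in experiments 1 and 2 and above it in experiments 3 and 4. The log2 ratio was 0.37 ± 0.62 (SD, n = 4, limma adjusted p 0.316) in irradiated and 0.39 ± 0.73 (SD, n = 4, limma adjusted p 0.337) in bystander cells, with a 95% interval of -0.14 to 0.88 in irradiated cells. A dim MYC probe, A_24_P178011, gave log2 ratios of -0.36 and -0.08, and another MYC probe, A_24_P38363, was well above background on 0 of 72 arrays. The brightest SRF probe, A_24_P346277, had levels of 3.97, 3.95, 4.08 and 3.50 in control cells, 3.86, 4.10, 4.63 and 2.87 in irradiated cells and 3.64, 3.86, 4.65 and 2.54 in bystander cells, and the exposed arrays spanned the controls. Its log2 ratio was -0.01 in irradiated cells (95% interval -0.46 to 0.44) and -0.20 in bystander cells. The other SRF probes gave -0.46 and -0.27 in irradiated and -0.27 and -0.31 in bystander cells.

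Irradiated and bystander cells of the same dishes were then compared directly. At 0.5 hours 0 of the 15 probes were called (limma; 0 at an unadjusted p below 0.05), against 0.0% of all probes. The differences, irradiated minus bystander, ran from -0.29 (MYC, A_24_P178011) to 0.19 (SRF, A_24_P346277). Over the 9 probes that rose they ran from -0.20 (NR4A2) to 0.11 (EGR3), and their 95% intervals all held 0 and together spanned -0.79 to 0.79, so a smaller difference could not be resolved for every probe. IER3 differed by -0.06 (95% interval -0.44 to 0.33) and EGR2 by -0.05 (-0.50 to 0.41). At 1, 2, 4, 6 and 24 hours none of the 15 was called in this comparison either, or reached an unadjusted p below 0.05 by limma, where 0.0%, 0.0436%, 0.00793%, 0.0% and 0.0% of all probes were called.

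**Figure D3:**
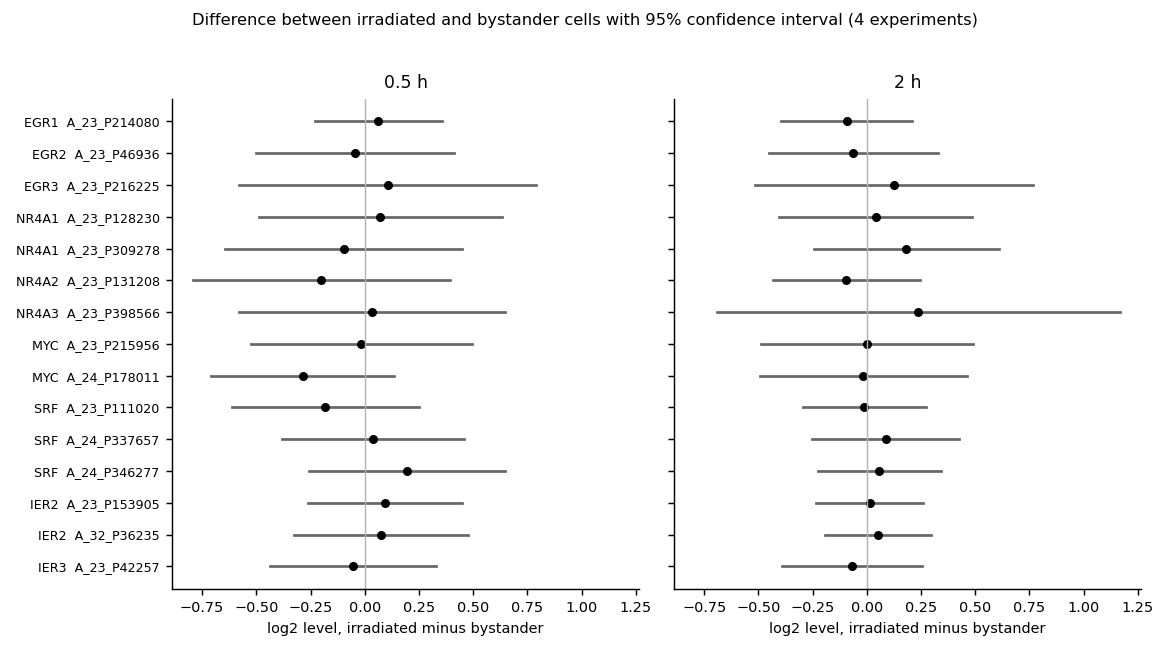
Difference in log2 level, irradiated minus bystander (horizontal axis), for the 15 probes at 0.5 and 2 hours. Points are estimates from 4 experiments and lines their 95% confidence intervals. Every interval holds 0.

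At 1 hour no probe on the array was called (0.0% and 0.0% of all probes by limma, with 6803 and 3630 of 25236 at an unadjusted p below 0.05). Of the 15 probes 5 in irradiated and 6 in bystander cells had an unadjusted p below 0.05. NR4A3 had the largest mean log2 ratio, 1.03 in irradiated and 0.89 in bystander cells, and its irradiated ratios were 0.32, 0.14, 1.18 and 2.47 in experiments 1 to 4. Experiment 4 gave the highest ratio for 12 of the 15 probes in each condition at this time. For EGR1 the irradiated ratios were 0.22, 0.29, 0.24 and 1.00, with experiment 4 far above the others.

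At 2 hours 5 of the 15 probes were called in irradiated cells, all higher, against 5.79% of all probes (3.09% higher). In bystander cells 0 were called, against 0.218% of all probes, with 9 of the 15 at an unadjusted p below 0.05 by limma, as were 3906 of all 25236 probes. EGR2, EGR3, NR4A1, IER2 (A_32_P36235) and IER3 rose in irradiated cells, by 0.65, 1.08, 0.91, 0.41 and 0.63 with adjusted p from 0.0585 to 0.087. In bystander cells the same probes had log2 ratios of 0.71, 0.96, 0.87, 0.36 and 0.70 with adjusted p from 0.126 to 0.207. None of the 5 differed between irradiated and bystander cells in the direct test.

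NR4A1 levels at 2 hours were 4.42, 4.60, 3.34 and 4.02 in control cells, 4.96, 5.31, 4.11 and 5.64 in irradiated cells and 5.11, 5.22, 3.71 and 5.81 in bystander cells. Each exposed array was above its own control, and the groups overlapped. EGR3 levels were -2.06, -2.20, -3.34 and -1.63 in control cells, -1.46, -1.38, -2.66 and 0.60 in irradiated cells and -1.68, -1.66, -2.80 and 0.74 in bystander cells, and its irradiated ratios were 0.60, 0.82, 0.67 and 2.24, with experiment 4 again the highest. IER3 irradiated ratios were 0.82, 0.75, 0.02 and 0.94, so that experiment 3 was near its control. NR4A3, at 0.22, 0.02, 1.44 and 2.95, had a mean of 1.16 that was not called (adjusted p 0.154, limma). NR4A2 had a log2 ratio of 0.10 in irradiated and 0.19 in bystander cells, and MYC (A_23_P215956) of 0.54 and 0.54, none of them called. Without experiment 1 or 2 none of the 15 probes was called in irradiated cells at this time, without experiment 3 only 1, and without experiment 4 the count was 6, with 6 in bystander cells as well. Of all 25236 probes 4916 were then called in irradiated and 3118 in bystander cells, against 1461 and 55 with all 4 experiments, so that the member counts rose along with those of the whole array. Without experiment 1, 2 or 3 the number over all probes was 28, 25 and 61 in irradiated cells. With arrays left unscaled 0 were called and the median over all probes was -0.38, with 68 of 6928 called probes higher in place of 781 of 1461.

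At 4, 6 and 24 hours none of the 15 probes was called in either condition. Of all probes 0.999%, 10.5% and 0.174% were called in irradiated cells at these times and 0.575%, 0.289% and 0.0% in bystander cells. By limma 0, 4 and 1 of the 15 had an unadjusted p below 0.05 in irradiated cells and 7, 1 and 1 in bystander cells. Over all probes these numbers were 3782, 6372 and 3347 in irradiated and 3985, 3663 and 2819 in bystander cells, of 25236 tested (25235 at 6 hours), so that the 4 of 15 at 6 hours in irradiated cells were near the share of all probes. At 6 hours the lowest adjusted p among members was that of IER2 (A_32_P36235) in irradiated cells, at 0.48 ± 0.40 (SD, n = 4, limma adjusted p 0.129), and EGR1 was at 0.50 and MYC at 0.50. Experiments went in opposite directions at 6 hours for NR4A2, with irradiated ratios of -2.02, -1.30, 1.48 and 0.19 and bystander ratios of -1.70, -1.28, 1.51 and -0.16. IER3 did the same at 6 hours, with 1.36, 1.38, -0.20 and -0.97 in irradiated and 1.08, 1.38, -0.50 and -0.96 in bystander cells. At 24 hours NR4A2 was above control in all 4 experiments in irradiated (0.49) and bystander (0.61) cells, with adjusted p of 0.269 and 0.338 by limma. EGR2 at 24 hours had irradiated ratios of -0.73, -0.58, 1.07 and -2.05, which were highest in experiment 3 and lowest in experiment 4.

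The ratios at consecutive times were compared in 1 fit of all 72 arrays. None of the 15 probes was called in any of the steps between times, against 0.00396% of all probes for irradiated and 0.00793% for bystander cells from 6 to 24 hours and 0% in the other steps. The largest step was that of NR4A3 in irradiated cells from 2 to 4 hours, at -1.05. At an unadjusted p below 0.05 stood the bystander ratios of NR4A2 (-1.05) and EGR2 (-1.04) from 4 to 6 hours and of NR4A2 (1.01) from 6 to 24 hours. By limma 656 and 1245 of all 25236 probes passed that threshold in these bystander steps.

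Levels in the sham controls differed between times as well. EGR1 in controls was at 4.26 ± 0.25 and 4.40 ± 0.29 (SD, n = 4) at 0.5 and 1 hours, at 2.94 ± 0.61, 2.69 ± 0.66 and 2.34 ± 0.40 at 2, 4 and 6 hours, and at 3.24 ± 0.50 at 24 hours. EGR3 was at -1.05 ± 0.67 at 1 hour and at -3.75 ± 0.75 at 6 hours, and NR4A1 at 5.19 ± 0.90 and 2.90 ± 0.60 (SD, n = 4). For both genes the 4 control arrays at 1 hour did not overlap those at 6 hours. The share of all probes that did the same was not counted, so nothing is read from it. MYC (A_23_P215956) was at 1.71 ± 0.51 at 1 hour and 0.32 ± 0.36 at 6 hours. IER3 was at 4.08 ± 0.72 at 6 hours and 5.61 ± 1.34 at 24 hours. Each time was hybridised on its own slides, so time and slide cannot be told apart in these levels and no test was made.

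**Figure D4:**
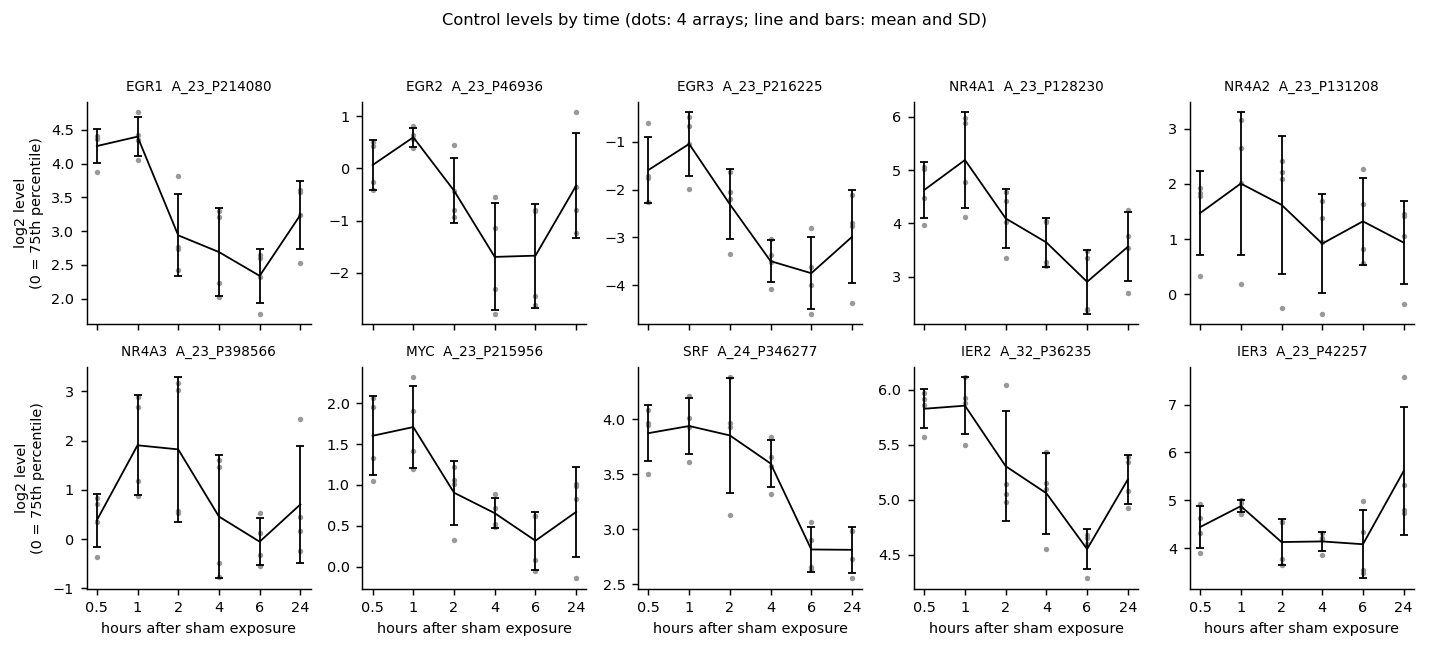
Log2 level relative to the 75th percentile of the array (vertical axis) in control cells against hours after sham exposure (not to scale). Dots are the 4 arrays of a time, and the line and bars are mean and SD. EGR1, EGR3, NR4A1, MYC and IER2 were among the genes with higher means at 0.5 and 1 hours than at 6 hours.

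Genes around the members were described from lists. Of 19 other immediate early transcription factors 17 were tested, and 2 were called at 0.5 hours in each condition, both higher: the stress factor ATF3 (log2 ratio 1.44 in irradiated, 1.15 in bystander cells) and the repressor HES1 (1.10 and 1.05). The list's median was 0.75 and 0.69, and the AP-1 subunits FOSB (1.76) and FOS (1.38) did not pass the test in irradiated cells. Of 24 other immediate early genes 23 were tested, of which 11 rose in irradiated and 7 in bystander cells and none fell. The largest were PTGS2 (cyclooxygenase 2) at 2.60 and 2.72 and the MAP kinase phosphatases DUSP2, at 2.13 and 2.08, and DUSP5, at 1.26 and 1.28. Of all 25236 probes 5.79% were called higher in irradiated and 4.2% in bystander cells at that time. At 2 hours, when 3.09% of all probes were called higher in irradiated cells, 7 of the 23 and 3 of the 17 factors rose in irradiated cells, and 1 and 0 in bystander cells. In bystander cells only 49 of all 25236 probes were called higher then, so nothing is read from the 1 and 0. In the direct comparison at 2 hours BTG2, an antiproliferative gene induced by p53, was higher in irradiated than in bystander cells by 1.67 and IER5 by 0.87, when 11 of 25236 probes were called, and none of the factors was. Without experiment 1, 2 or 3, that comparison called 0 of all probes. The same held without experiment as a block and with slide as a fixed block, so the calls of BTG2 and IER5 were lost there. At 4 hours 2 of the 23 rose in irradiated and 3 in bystander cells, and 0 of the 17 factors in either. Of all 25236 probes 194 and 120 were called higher at that time. At 6 hours, when no member was called, 8 of the 23 rose in irradiated cells, led by PTGS2 at 2.91 and the growth factor HBEGF at 1.50, and 1 rose in bystander cells. Of the 17 factors 5 rose then, among them KLF2 (1.47) and ATF3 (1.33), and 1 fell, while 0 of them were called in bystander cells. Of all 25235 probes 1236 were called higher in irradiated and 54 in bystander cells at 6 hours. These numbers moved with the processing: without scaling 285 of 4466 called probes were higher in irradiated cells, in place of 1236 of 2657. Without experiment 1, 2, 3 or 4, the number called in irradiated cells was 788, 1274, 1874 and 208. In the direct comparison of irradiated with bystander cells at 6 hours, limma called 0 of the 17 factors, 0 of the 23 other genes and 0 of all probes, of which 381 had an unadjusted p below 0.05.

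Of 13 SRF cofactors and MAP kinases tested, MKL1, the actin-regulated coactivator of SRF also named MRTFA, fell by 0.79 in irradiated and by 0.83 in bystander cells at 0.5 hours, and the kinase RPS6KA3 rose by 0.53 in irradiated cells. No other gene of that list was called at that time. Of all probes 9.88% and 6.95% were called then in irradiated and bystander cells, and nothing is read from so few calls. Of 16 cytoskeletal targets of SRF and its MRTF coactivators 7 fell in irradiated and 7 in bystander cells and none rose. Of all 25236 probes 2494 were called in irradiated cells, 1461 of them higher and the rest lower. In bystander cells 1753 of the 25236 were called, 1061 of them higher and the rest lower. Without experiment 2, 0 of all probes were called at 0.5 hours in either condition. The calls of the targets and of the other lists at that time were therefore lost there. Without experiment as a block 14 of all probes were called in irradiated and 20 in bystander cells. The targets had a median of -0.62 and -0.67. Smooth muscle actin ACTA2 fell by 1.64 and by 1.93, and ACTG2 fell by 1.08 and by 1.37. None of these targets was called at 1, 2, 4 or 24 hours in either condition, and at 6 hours 2 fell in irradiated cells, near the 10.5% of all probes called there. At 1 hour in either condition and at 24 hours in bystander cells 0 of all probes were called, so that none of the targets could be. At 2 and 4 hours 5.79% and 0.999% of all probes were called in irradiated and 0.218% and 0.575% in bystander cells. At 24 hours it was 0.174% in irradiated cells, so nothing is read from the targets not being called at these times. Their median at 1, 2, 4, 6 and 24 hours was -0.41, -0.03, -0.42, -0.19 and -0.42 in irradiated cells and -0.47, -0.10, -0.54, -0.27 and -0.48 in bystander cells.

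**Figure D5:**
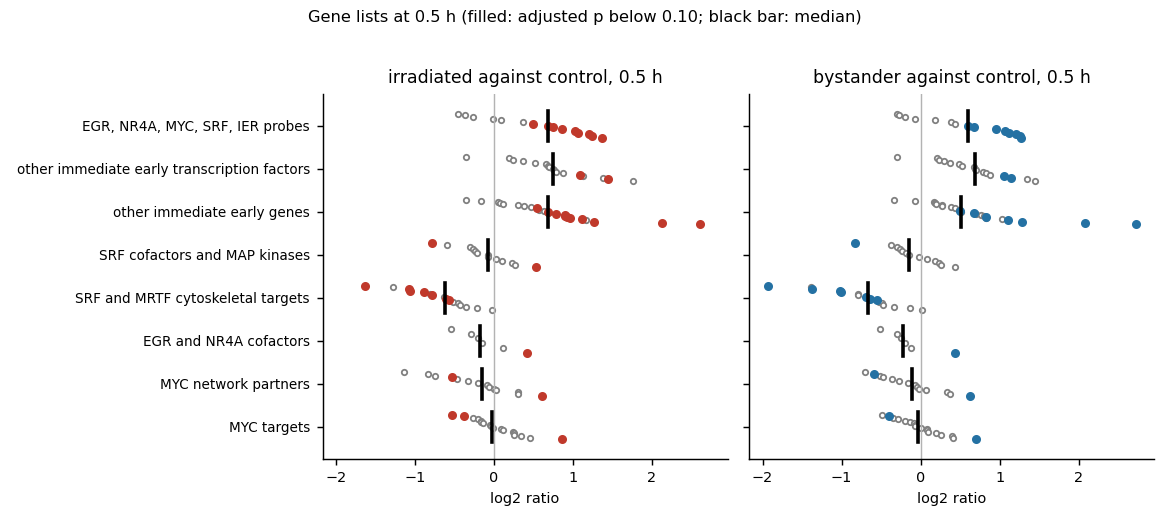
Log2 ratio to control at 0.5 hours (horizontal axis) for the 15 probes and for 7 gene lists (1 probe a gene), in irradiated (left) and bystander (right) cells. Filled points passed an adjusted p of 0.10 and black bars are medians. Called points of the members and of both immediate early lists lie to the right of 0 and those of the cytoskeletal targets to the left.

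Among 6 cofactors of EGR and NR4A proteins tested, the EGR corepressor NAB1 rose by 0.43 in irradiated and by 0.44 in bystander cells at 0.5 hours, the only call of that list at a time when 9.88% and 6.95% of all probes were called. Of 14 MYC network partners tested, FBXW7, which marks MYC for degradation, rose by 0.61 and 0.63 at 0.5 hours, and MLXIP fell by 0.54 and by 0.59, and with so few calls nothing is read from the counts of either list. At 6 hours, when 10.5% of all probes were called, 6 of them fell in irradiated cells and 1 rose, with a median of -0.57 against 0.02 over all probes, and none was called in bystander cells, where the median was -0.42. MXD4 (-1.27) and MXI1 (-0.98), which compete with MYC for its partner MAX, were among those that fell. Of 18 MYC targets tested 1 rose and 2 fell at 0.5 hours in irradiated cells, and 3 rose at 6 hours, when 1236 of 25235 probes were called higher: ODC1 of polyamine synthesis (1.43), the cap-binding factor EIF4E (0.78) and PA2G4 (0.74). With 3 of 18 called at each of these times, against 9.88% and 10.5% of all probes, nothing is read from the counts of this list. ODC1 was also called at 0.5 hours, at 0.86 in irradiated and at 0.69 in bystander cells. MYC itself was not called at either time.

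The probes most alike were found from the 72 levels after the mean of the 3 arrays of the same time and experiment had been taken off each, so that the 3 arrays of a set share that mean. NR4A1 was most like NR4A3 (Pearson r 0.863 over 72 arrays), followed by 2 probes without a gene name, the phosphatase DUSP1 (0.839) and the translation factor EIF5 (0.835). EGR1 was most like IER2 (0.815), with YRDC (0.755) and ABL2 (0.752) also among its 5. MYC was most like LRRC8C (0.921), DDX21 (0.903), CCDC88A (0.901), SPRY2 (0.901) and BIRC2 (0.896), with no other member among them. IER3 was most like FBXO30 (0.812), ZC3H12A (0.807), HMOX1 (0.801), KCNJ15 (0.796) and MAP3K8 (0.775). Between members the highest values were those of the IER2 probes with each other (0.922), NR4A1 with NR4A3, and EGR2 with EGR3 (0.852), whereas the MYC probes that passed the filter gave -0.28.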

How the data were processed

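RNA of 72 samples was hybridised to Agilent 1-colour whole human genome arrays. The deposited scanner files hold the processed signal intensity of each spot, which the authors obtained with Agilent Feature Extraction 9.1.3.1 (protocol GE1-v1_91) after background subtraction and spatial detrending, with no scaling between arrays, and flags (scored 0 or 1) for spots well above background or not uniform. The authors also deposited a table of log2 values, which served as an alternative. In that table the 0.5 hour columns of replicates 3 and 4 (6 columns) hold each other's scanner values, and the scanner files were followed.

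Intensities were divided by the 75th percentile of the array, set to a floor of -6.92 on the log2 scale, taken as log2 and averaged over spots of 1 probe (43376 spots, 41000 probes). Probes with over 10% of spots not well above background or not uniform were left out, which kept 25236. Each time (12 arrays) was fitted in limma 3.58.1 (R 4.3.3) with treatment and experiment, and p-values were adjusted by Benjamini-Hochberg over all probes tested and called below 0.10. Replicate numbers mark the experiments of the study's methods, and same-numbered samples deviated together (r above 0.1 for all 12 pairs at each time except 4 and 6 hours, where it was so for 10). Slides (18 in all, each of 4 arrays) were tried as a block. The limma step was tested on simulated data. The number of arrays limits the precision.

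The members and the gene lists were chosen with earlier results of these data known. All member probes were described. From each list up to 4 called genes with the largest change were eligible to be named in a comparison, and for 4 members the 5 most alike probes. FOS and FOSB, which were not called, were named after their values had been seen. The 14 alternatives changed the scaling, background correction, filter, block, slide, fit, threshold or table, or left out each replicate.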

Additional observations from a re-analysis of the deposited data

Results flagged for a closer look

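In groups of 4 experiments, 11 of the 180 sets of log2 ratios had 1 experiment far from the other 3 by Dixon's test, and chance gives about 1 in 20. Irradiated and bystander ratios share the control array, so paired entries are not independent.

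At 0.5 hours experiment 3 stood apart for EGR3 in bystander cells (2.68, others 0.67 to 0.99) and for NR4A3 in irradiated (2.31, others 0.80 to 1.00) and bystander cells (2.56, others 0.57 to 0.86). At 1 hour experiment 4 stood apart for EGR1 in irradiated (1.00, others 0.22 to 0.29) and bystander cells (1.00, others 0.18 to 0.29) and for IER2 (A_32_P36235) in irradiated cells (0.88, others 0.10 to 0.18). At 2 hours experiment 4 stood apart for EGR3 in irradiated (2.24, others 0.60 to 0.82) and bystander cells (2.37, others 0.38 to 0.54), for SRF (A_24_P346277) in irradiated cells (0.89, others 0.17 to 0.26) and for IER2 (A_32_P36235) in bystander cells (0.66, others 0.24 to 0.29). At 24 hours experiment 1 of the dim NR4A1 probe A_23_P309278 was at -0.94 in bystander cells, and the others were at 0.19 to 0.41. The cause was not tested.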

How the results depend on the processing

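No called log2 ratio of a member changed sign under the 14 alternatives. Of the 15 probes tested, 9 were called at 0.5 hours in irradiated cells, 8 in bystander cells and 5 at 2 hours in irradiated cells. These counts fell to 1, 1 and 0 without scaling between arrays, to 1, 2 and 0 without the filter on dim probes, to 2, 2 and 0 with slide as a fixed block, and to 4, 2 and 0 at an adjusted p below 0.05. The counts over all probes were 2494, 1753 and 1461 in the main setting. They were 213, 251 and 6928 without scaling and 476, 659 and 904 without the filter. With slide as a fixed block they were 312, 149 and 31, and at an adjusted p below 0.05 they were 625, 522 and 290. Without the replicate block, which removes the pairing, the member counts were 0, 0 and 0, and those over all probes 14, 20 and 2. Normexp background correction gave 6 member probes in irradiated cells at 0.5 hours, without EGR1 and both IER2 probes, and 5 in bystander cells. At 2 hours it gave 4 in irradiated cells, with NR4A3 in place of IER2 and IER3, and 2 in bystander cells, where the main setting called 0. Of all probes it called 1036 and 1966 at 0.5 hours and 534 and 383 at 2 hours, where the main setting called 55 in bystander cells. The authors' table gave 3 member probes in bystander cells at 0.5 hours, 3 in irradiated cells at 2 hours and 1 in bystander cells at 4 hours. Of all probes it called 1148, 2961 and 622 there, the last against 145 in the main setting. Without scaling 6 member probes were called in bystander cells at 4 hours, along with 3730 of all probes, 3708 of them higher. The median over all probes was then 0.42. One fit of 72 arrays gave 0 in irradiated cells at 2 hours and 3 at 6 hours, where it called 6571 of 25236 probes, and slide as a fixed block 1 at 6 hours (2350 of all probes). Leaving out each replicate in turn gave 0 to 7 in irradiated and 0 to 6 in bystander cells at 0.5 hours, and 0 to 6 in each at 2 hours. The cause was not tested. The share of higher calls among all probes moved with the scaling, from 1061 of 1753 to 91 of 251 without scaling in bystander cells at 0.5 hours, and in irradiated cells at 2 hours from 781 of 1461 to 68 of 6928 without scaling and 624 of 2961 in the authors' table. Signal over background limits NR4A3 probe A_23_P306867 (well above background on 10 of 72 arrays) and MYC probe A_24_P38363 (0 of 72).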
